A study of Mus musculus with 6 samples.

Results

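Apoe, Cav2 and Rab5a, 3 of the 50 linear RNAs on a mouse circular RNA array, encode proteins of lipid carriage and of uptake at the cell surface. They were followed in kidneys of BALB/c mice after chronic intermittent hypoxia (CIH), a model of obstructive sleep apnoea. Their probes, A_51_P171999 for Apoe, A_51_P279552 for Cav2 and A_51_P117604 for Rab5a, were chosen by probe name and by the role of their genes, among 14330 non-control probes in all. That choice was made with the differences of Cav2 and Apoe between CIH and control on these same 6 arrays already known. The comparison of the groups is therefore given as a description of these arrays, with no test of its own.

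Each array held total RNA of 1 kidney sample, 3 from CIH mice and 3 from controls, with no allele or transgene named for either group. For the CIH mice, oxygen in the chamber fell to 6% for 60 seconds and came back to 21% for 60 seconds, 30 times an hour, 8 hours a day, over 8 weeks. The labels state neither the age of the mice nor how controls were housed, and they do not say that each array is a separate mouse. They name kidney as the tissue, while the handling steps speak of pancreas and of a kit made for RNA from blood that includes depletion of globin. None of the kidney cell type markers looked for was among the linear RNAs, so the tissue could not be checked against its markers. The single pancreas marker measured, Chgb, which encodes a granule protein of endocrine cells, had a log2 level of 0.17 in CIH and -0.04 in control arrays relative to the array's 75th percentile.

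Apolipoprotein E coats lipoprotein particles and is the ligand by which receptors of the LDL receptor family take them up. Caveolin-2 forms, together with caveolin-1, the coat of caveolae, the flask-shaped pits of the plasma membrane that are abundant in endothelium. Rab5a is a small GTPase that marks the early endosome and governs the fusion of incoming vesicles with it. In the kidney, receptor-mediated endocytosis is best known from the proximal tubule, which takes up filtered proteins and lipid carriers. Of the lists of genes with related roles, lipoprotein and lipid carriage had 1 of 53 genes on the array, caveolae had 1 of 14, and clathrin endocytosis and early endosome had 1 of 51. That single gene was the member itself in each list, and 0 of the 3 passed the test across linear RNAs described below.

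The DNA before the transcription start of the 3 genes is shown because CIH lowers oxygen, and hypoxia-inducible factors bind sites with the core ACGTG or GCGTG. The windows are from RefSeq on GRCm38.p6, all 3 genes were matched by symbol, and each window holds the 250 bases before the start. They lie at chr7:19699189-19699438 on the minus strand for Apoe, at chr6:17280935-17281184 on the plus strand for Cav2 and at chr17:53478984-53479233 on the plus strand for Rab5a. Capitals mark every match to either core on either strand.
Apoe: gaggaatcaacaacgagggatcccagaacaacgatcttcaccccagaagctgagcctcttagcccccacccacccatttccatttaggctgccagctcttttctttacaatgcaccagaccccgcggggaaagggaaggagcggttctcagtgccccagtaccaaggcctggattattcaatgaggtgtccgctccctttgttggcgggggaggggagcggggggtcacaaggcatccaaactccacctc
Cav2: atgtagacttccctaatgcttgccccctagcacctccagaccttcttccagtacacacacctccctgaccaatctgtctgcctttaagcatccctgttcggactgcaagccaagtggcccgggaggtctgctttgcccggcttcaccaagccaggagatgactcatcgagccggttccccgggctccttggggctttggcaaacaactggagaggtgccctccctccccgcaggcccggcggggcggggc
Rab5a: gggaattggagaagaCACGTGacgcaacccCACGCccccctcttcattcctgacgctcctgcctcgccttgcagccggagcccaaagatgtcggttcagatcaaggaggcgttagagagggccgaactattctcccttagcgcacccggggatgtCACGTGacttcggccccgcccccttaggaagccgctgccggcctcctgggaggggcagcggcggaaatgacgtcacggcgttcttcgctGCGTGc
Rab5a had 4 stretches with a match, which begin at -235, -220, -95 and -6 bases from the start. The stretches at -235 and -95 read CACGTG, in which a match on each strand overlaps. Neither the Cav2 window nor the 3 Apoe windows of the table, of which the one farthest upstream is shown, held these letters. Of 32851 windows of this length, 38.6% held at least 1 match, 16.6% to ACGTG and 28.2% to GCGTG. The match describes letters only, and binding was not measured here. GC content was 57.2% in the Apoe window shown, 62.0% in that of Cav2 and 64.0% in that of Rab5a.

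All CIH arrays and control 1 shared slide 1, whereas controls 2 and 3 were alone on slide 2. A difference between slides therefore cannot be told apart from one between control samples. It would also enter the differences between CIH and control over all 6 arrays, since slide 2 held controls only. The 75th percentile of processed intensity, the brightness of a spot after background subtraction, was 463 to 527 in CIH and 449 to 469 in control arrays. Levels below are log2 of the processed intensity minus log2 of that percentile, averaged over the unflagged spots of a probe. Each member had 10 spots per array, of which 7 to 10 were used, and the scanner software flagged 6 member spots in all as outliers. No member spot was saturated, and all were called well above background by the software.

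The 3 genes spanned a wide range of signal. Apoe was brighter on every array than all 15 probes named MM9NEGATIVE, which carry the name of negative controls but give clear signal. Rab5a was brighter than 10 to 12 of them, and Cav2 than 2 to 6. Over the 6 arrays the log2 level relative to the mean of these 15 probes was 5.12 ± 0.090 (SD, n = 6) for Apoe, 1.03 ± 0.13 (SD, n = 6) for Rab5a and -1.01 ± 0.52 (SD, n = 6) for Cav2. The files do not say what the MM9NEGATIVE probes contain, and they differ widely among themselves. On CIH 1 their intensities ran from 11.5 to 330.9, and on control 3 from 12.1 to 239.8. Against the brightest of them the level was 2.49 for Apoe, -1.60 for Rab5a and -3.64 for Cav2. A second reference is the (-)3xSLv1 control, with 77 spots per array. Its background-subtracted intensity had a mean between -0.29 and 0.083 and never exceeded 4.74. The dimmest Cav2 spot of any array had 11.9 on the same scale. Cav2 thus lay above the structural control and below the average MM9NEGATIVE probe, and how much of its signal is Cav2 RNA was not tested.

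**Figure D1:**
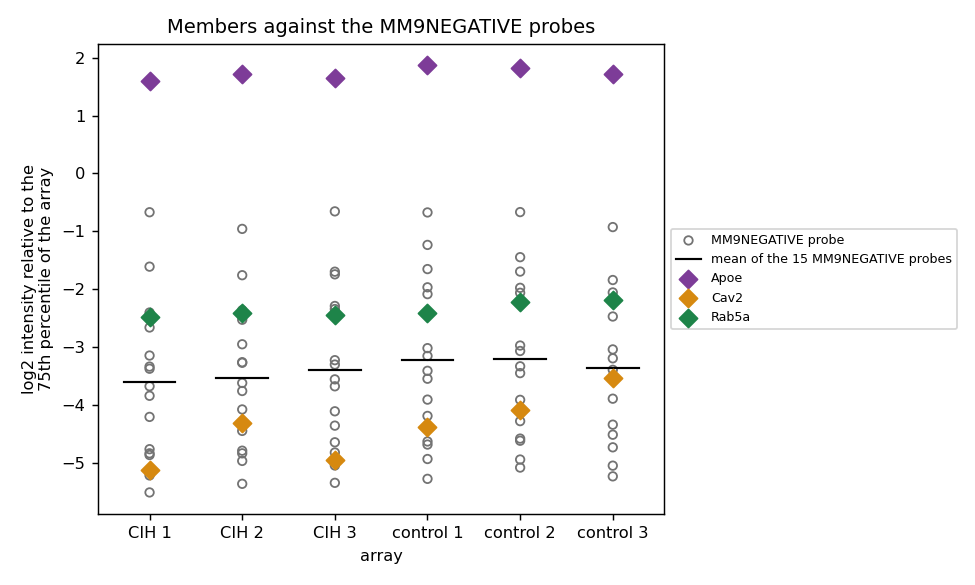
Log2 intensity relative to the 75th percentile of the array (vertical axis) on each of the 6 arrays (horizontal axis). Open circles are the 15 MM9NEGATIVE probes, black bars their mean, and diamonds Apoe, Cav2 and Rab5a. Apoe lies above every circle, Rab5a above 10 to 12 of them, and Cav2 below the mean on all 6 arrays.

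Among linear RNAs, 0 of the 3 genes passed a limma adjusted p of 0.05, where 2 of the 50 probes did (4%). Nothing is read from this count for the members, since this contrast was known when they were chosen. At an unadjusted limma p under 0.05 there were 9 of the 50 probes. Of the 3 members, 1 was among them, Cav2, and nothing is read from that either. The limma fit with trend and robust moderation also passed 0 of the 3. All 3 had a lower mean in CIH by 75th percentile scaling, as had 36 of the 50 probes. With the mean of the MM9NEGATIVE probes as the reference the sign turned for Apoe and Rab5a, and 8 of the 50 probes were lower. Every sign rests on the group given in the array titles. The short codes of the deposited files can be read the other way round, in which case all signs would turn. In these bulk samples fewer cells of a type and less RNA per cell cannot be told apart.

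For Apoe, the lipoprotein ligand, the processed intensity was 1588, 1525 and 1493 on CIH 1, 2 and 3 and 1639, 1661 and 1494 on controls 1, 2 and 3. Controls 1 and 2 were the brightest arrays, and control 3 lay with the CIH arrays. On the scaled log2 axis the levels were 1.59, 1.72 and 1.65 in CIH and 1.87, 1.83 and 1.71 in control. The groups overlapped, since CIH 2 at 1.72 lay just above control 3 at 1.71, a gap smaller than the SD of 0.021 and 0.023 between spots of those 2 arrays. Under quantile normalization, with or without normexp, every CIH array lay below every control array and the log2 difference was -0.19. How many of all linear RNA probes separated in this way under these settings was not counted, so nothing is read from it. The CIH mean was 1.65 ± 0.064 (SD, n = 3) and the control mean 1.80 ± 0.081 (SD, n = 3). The log2 difference was -0.15 (SE 0.077, 95% interval -0.33 to 0.031), a CIH level 0.902 times that of control. With the MM9NEGATIVE reference it was 0.097 (SE 0.089), with a CIH mean of 5.16 ± 0.11 (SD, n = 3) and a control mean of 5.07 ± 0.032 (SD, n = 3). With median scaling it was -0.07 and with no scaling between arrays -0.06. The CIH mean differed by -0.22 from control 1 on the same slide, and by -0.17 and -0.058 from controls 2 and 3 on slide 2. With slide as a block the difference was -0.22 (SE 0.089).

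For Rab5a, the early endosome GTPase, the processed intensity was 94.3, 86.9 and 86.8 on CIH 1, 2 and 3 and 84.7, 100.3 and 99.5 on controls 1, 2 and 3. Before scaling, control 1 was therefore the dimmest array of all, and the groups overlapped. After scaling the levels were -2.48, -2.41 and -2.46 in CIH and -2.41, -2.23 and -2.20 in control. Every CIH array then lay below every control array, as for 7 of the 50 linear RNA probes (14%). Control 1 and CIH 2 were separated by less than the SD of 0.028 and 0.040 between spots of those arrays. The groups overlapped again without background subtraction, with normexp and quantile normalization and with the MM9NEGATIVE reference. The CIH mean was -2.45 ± 0.035 (SD, n = 3), and control averaged -2.28 ± 0.11 (SD, n = 3). That gave a log2 difference of -0.18 (SE 0.081, 95% interval -0.36 to 0.013), or 0.886 times control. Relative to the MM9NEGATIVE probes, the CIH level of Rab5a was 1.06 ± 0.11 (SD, n = 3) and the control level 0.99 ± 0.17 (SD, n = 3), a difference of 0.070 (SE 0.11). The gap was wider to controls 2 and 3 than to control 1. The CIH mean lay -0.23 and -0.25 from controls 2 and 3 on slide 2, but -0.045 from control 1 on slide 1. The fit with slide as a block, which rests on control 1, gave -0.045 (SE 0.069).

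**Figure D2:**
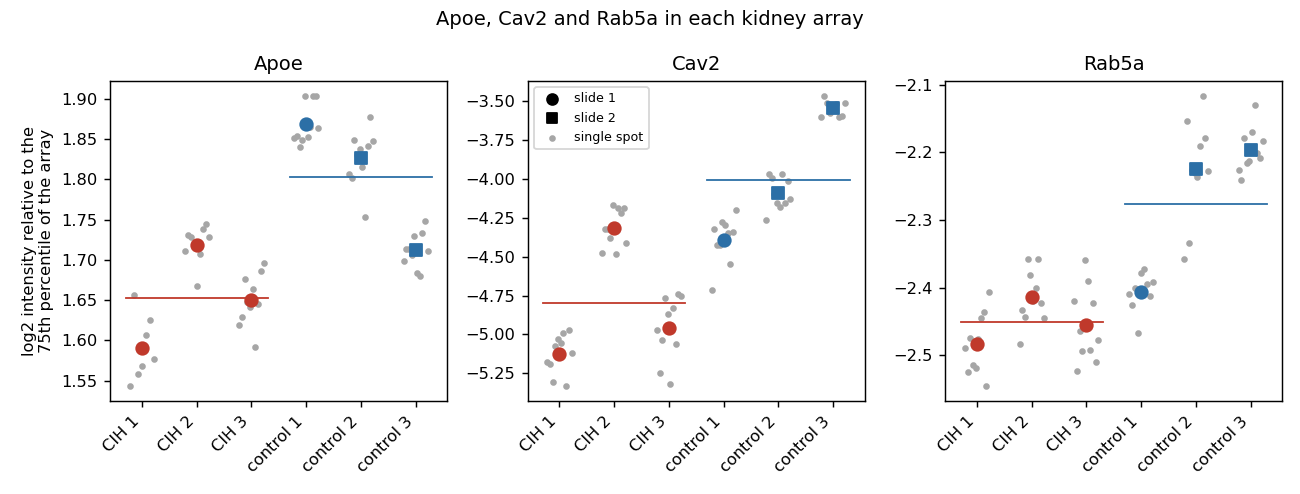
Log2 intensity relative to the 75th percentile of the array (vertical axes, with a different range in each panel) of Apoe, Cav2 and Rab5a on each array. Grey points are single unflagged spots, large symbols their mean (red CIH, blue control; circles slide 1, squares slide 2) and lines the group means. With this scaling groups overlap for Apoe and Cav2, and for Rab5a control 1 at -2.41 lies next to the CIH arrays.

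Cav2, the caveolar coat protein, had the lowest signal of the 3 and the widest spread. Its processed intensity was 15.2, 23.3 and 15.4 on CIH 1, 2 and 3 and 21.5, 27.6 and 39.1 on controls 1, 2 and 3. CIH 1 and CIH 3 were lowest, control 3 was highest, and CIH 2 lay above control 1. Scaled levels were -5.13, -4.32 and -4.96 in CIH and -4.39, -4.09 and -3.54 in control, so the groups overlapped. CIH averaged -4.80 ± 0.43 (SD, n = 3), against -4.01 ± 0.43 (SD, n = 3) for control. The log2 difference of -0.79 (SE 0.27, 95% interval -1.41 to -0.17), 0.578 times control, was the second lowest of the 50 linear RNA probes after Gsta4. That rank is a description only, as the difference was known when Cav2 was chosen. Within an array the spots of Cav2 had an SD of 0.050 to 0.21, below the 0.43 between arrays of a group.

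The difference of Cav2 varied with the control array. The CIH mean differed by -0.41 from control 1 on slide 1, by -0.71 from control 2 and by -1.26 from control 3, both on slide 2. With slide as a block, which uses control 1 alone, it was -0.41 (SE 0.37). Without CIH 2 it was -1.03 (SE 0.21), the one alternative under which Cav2 was among the probes called. Nothing is read from that call, since the gene was chosen with its difference known.

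Most MM9NEGATIVE probes moved the same way as Cav2. Of the 15, 14 had a lower mean in CIH, with a median log2 difference of -0.23 and a range from -0.78 to 0.15. MM9NEGATIVE002 and MM9NEGATIVE003 had -0.78 (SE 0.28) and -0.73 (SE 0.31), close to the -0.79 of Cav2. Their order of arrays was another one. The highest array of MM9NEGATIVE002 was control 1 at -1.65, and its control 3, at -2.47, lay below CIH 3 at -2.35. Relative to the mean of the 15 probes, the Cav2 difference was -0.55 (SE 0.29). The mean of all 15 was -3.51 in CIH and -3.27 in control arrays. The part of this shift in the results for Cav2, Rab5a and Apoe was not tested.

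The size of the Cav2 difference depended on background subtraction. The median brightness of a Cav2 spot was 40.5, 47.8 and 39.8 on CIH 1, 2 and 3 and 44.7, 53.7 and 62.2 on controls 1, 2 and 3. The order of the arrays was nearly that of the processed signal, with CIH 2 again above control 1. The background-subtracted intensity of Cav2 lay 23.3 to 26.2 units below the spot median on each array and was 37.0% to 62.6% of it. For Rab5a it was 78.1% to 80.7% of the spot median and for Apoe 97.4% to 98.8%. The gap for Apoe was 19.2 to 41.7 units, and what it holds beside background was not tested. Without subtraction the log2 difference of Cav2 was -0.41, and with normexp correction and the 75th percentile it was -0.31. Both settings by themselves shrink log2 differences of dim spots. The first leaves the background in, and the second adds an offset of 50 units, above every processed intensity of Cav2. Neither is therefore a separate check of the size. Rab5a had -0.15 and -0.13 under the same settings, and Apoe -0.14 under both.

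**Figure D3:**
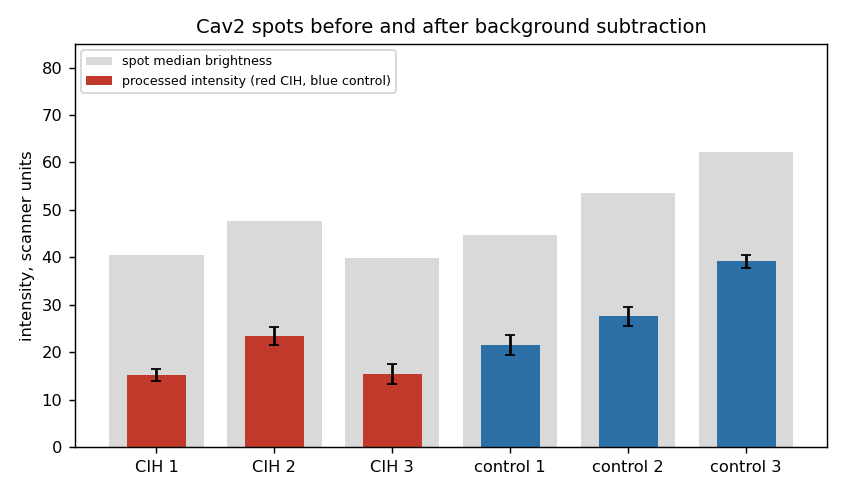
Mean brightness of the Cav2 spots on each array in scanner units. Wide grey bars are the spot median before background subtraction, and narrow bars the processed intensity after it (red CIH, blue control; error bars are the SD over 9 or 10 spots). The spot median lies 23.3 to 26.2 units above the background-subtracted intensity on every array. The processed intensity runs from 15.2 on CIH 1 to 39.1 on control 3.

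The sign of the Cav2 difference was the same under every setting tried, from -1.03 without CIH 2 to -0.20 with normexp and quantile normalization. Apoe ran from -0.22 with slide as a block to 0.097 with the MM9NEGATIVE reference. For Rab5a the lowest value was -0.24, without control 1, and the highest was 0.070, with the MM9NEGATIVE reference. Among the settings that kept the sign of Rab5a, normexp with quantile normalization and the slide block left it nearest to 0, at -0.044 and -0.045. The scaling alone moved the median difference of the 50 linear RNA probes from -0.06 to 0.18 under the MM9NEGATIVE reference. Apoe and Rab5a stood below that median, and Cav2 further below. The MM9NEGATIVE reference could not alter these distances, since it shifts all linear RNA probes of an array by the same amount. It is therefore no separate check of them.

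**Figure D4:**
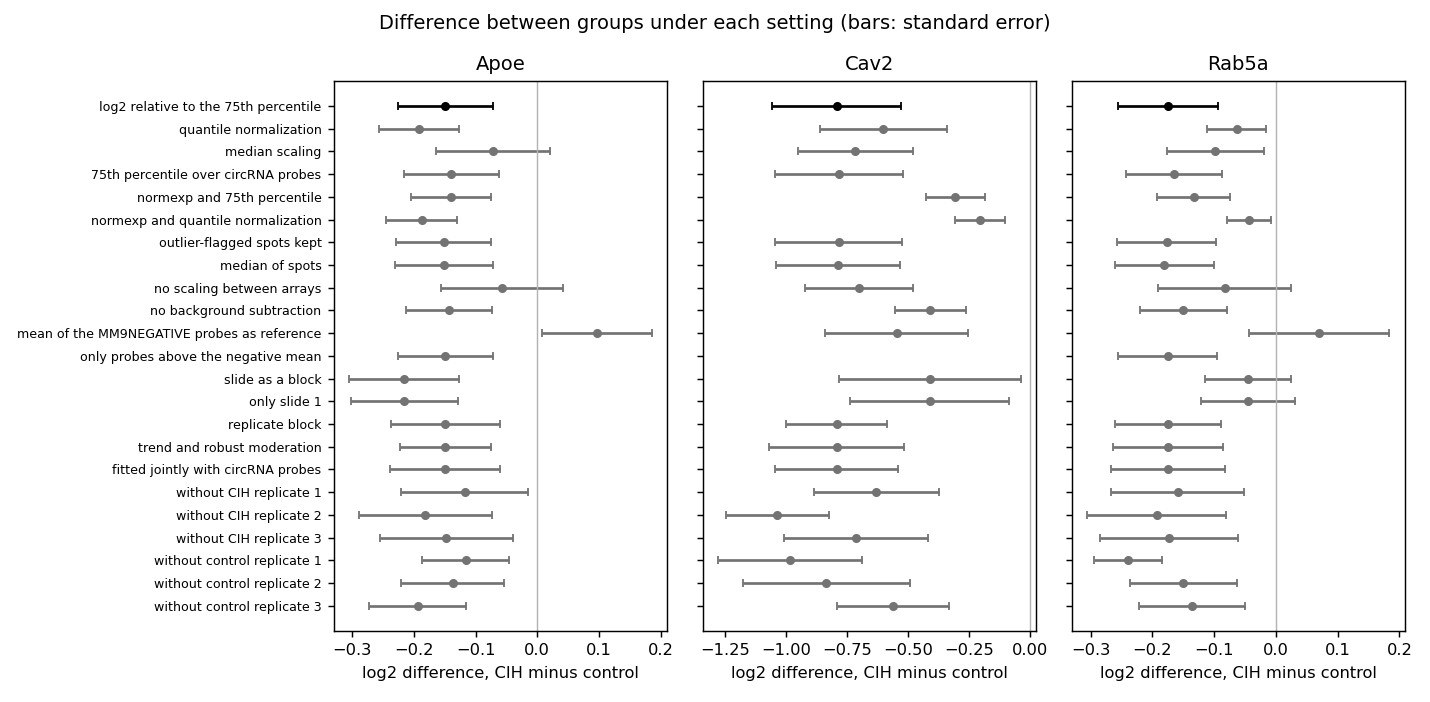
Log2 difference, CIH minus control (horizontal axes, with a different range in each panel), of Apoe, Cav2 and Rab5a under each setting (rows), with the standard error of the fit as bars and the reported setting in black. Cav2 has no point where dim probes are left out. The Cav2 points all lie below 0, and those of Apoe and Rab5a pass 0 only with the MM9NEGATIVE reference.

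The profile of each member over the 6 arrays was set beside those of the 43 other named linear RNAs. Likeness was the root mean square difference between log2 values, each centred on the mean of its own probe. A profile flat over the 6 arrays would differ by 0.53 from Cav2, 0.11 from Rab5a and 0.095 from Apoe. These values are near or below the medians given here, so a value under the median need not mean a shared profile. Cav2 was most like Cpt1a, which brings long-chain fatty acids to the mitochondrial import pathway, with a difference of 0.086 against a median of 0.53 over the 43. The Cpt1a levels were -1.38, -0.70 and -1.18 in CIH and -0.74, -0.32 and 0.0023 in control. The gap between Cpt1a and Cav2 stayed between 3.55 and 3.78 on the 6 arrays, while Cav2 itself ranged over 1.58. Both had CIH 1 and CIH 3 lowest and control 3 highest. Next came Actb, cytoplasmic beta-actin, at 0.26, with a log2 difference of -0.36 (SE 0.20) between groups. All these profiles share the same 6 arrays, scaling and slides.

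Apoe was most like Prdx2, a peroxidase that removes hydrogen peroxide, with a root mean square difference of 0.044 against a median of 0.12. Dnajc11, a co-chaperone of the mitochondria, followed at 0.050. Prdx2 had levels of 0.093, 0.15 and 0.17 in CIH and 0.27, 0.26 and 0.18 in control, with control 3 next to the CIH arrays as for Apoe. Rab5a was most like Trp53rka, a kinase named for p53, at 0.039, and then Rps4l, whose probe carries the accession of a non-coding transcript, at 0.048, against a median of 0.16. Trp53rka had -3.48, -3.38 and -3.51 in CIH and -3.39, -3.21 and -3.13 in control, with controls 2 and 3, the arrays of slide 2, highest. Its signal was near the mean of the MM9NEGATIVE probes, -3.51 in CIH and -3.27 in control. Dnajc11 averaged -3.42 in CIH and -3.32 in control, and Rps4l -3.21 and -3.11. How much of these signals is RNA of the named genes was not tested. The 43 others include the remaining members. Among the 3 the difference was 0.11 between Apoe and Rab5a, 0.43 between Cav2 and Rab5a and 0.48 between Apoe and Cav2. The 0.11 is about what a flat profile would give.

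**Figure D5:**
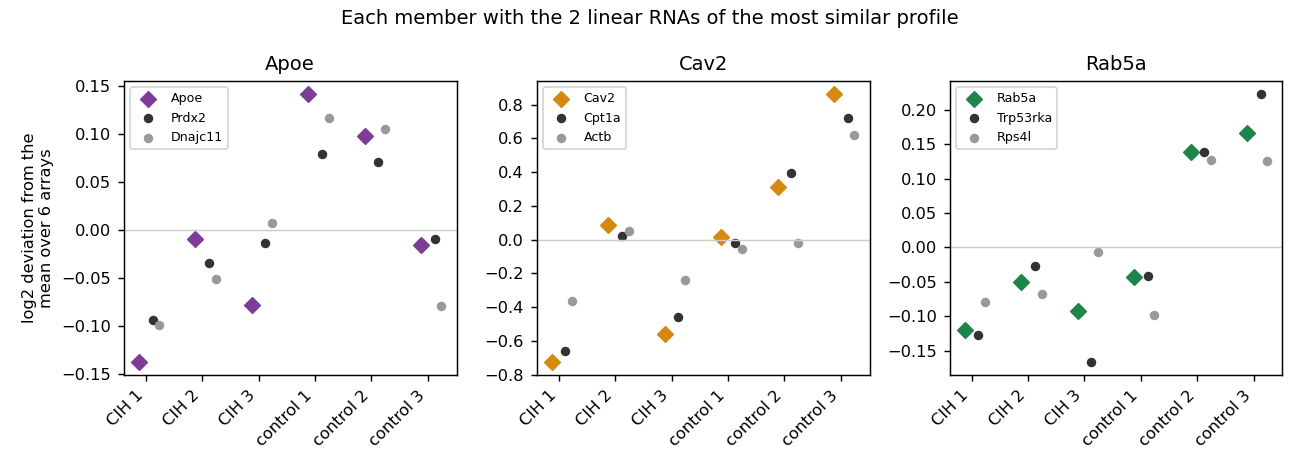
Log2 deviation from the mean over the 6 arrays (vertical axes, with a different range in each panel) of each member (diamonds) and of the 2 named linear RNAs of the most similar profile (dots). Cav2 and Cpt1a share low values on CIH 1 and CIH 3 and the highest value on control 3, while Rab5a and Trp53rka are highest on controls 2 and 3.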

How the data were processed

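From each of 6 kidney samples 0.5 µg of RNA was made into Cy3 cRNA and read on a 1-colour Agilent array, per the labels. The deposited scanner files hold intensity values from Feature Extraction, 11.0.1.1 per the file headers and 9.1 per the submitters' processing notes. The authors' value table holds log2 values of circRNA probes only (0 of the 50 linear RNA probes), so it gave no value here. Per the file headers, the deposited processed intensity had background removed and was detrended, with no scaling between arrays. Groups were taken from the array titles alone.

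Log2 processed intensity minus the array's 75th percentile over non-control spots was averaged over spots without an outlier flag. All 50 linear RNA probes were fitted with limma 3.58.1 in R 4.3.3 (lmFit, eBayes, two-sided, Benjamini-Hochberg over the 50, threshold 0.05), and the fit was tested on simulated data. Accessions named 44 probes through the RefSeq table of GRCm38.p6. The members, the gene lists and the settings were chosen with earlier results of these data known. Since separate mice are not stated, p-values cover the spread of these 6 samples only, possibly technical, and the number of arrays limits the precision. Genes were named by a fixed rule: the 3 members, the 2 named linear RNAs nearest to each in profile, list members and Actb. Gsta4, MM9NEGATIVE002 and MM9NEGATIVE003 were singled out after their values were seen, and Chgb as a marker. The nerve marker Mbp, the only other marker measured, had a log2 difference of 0.61 (limma adjusted p 0.19).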

Additional observations from a re-analysis of the deposited data

How the results depend on the processing

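The references without scaling, without background subtraction and with the MM9NEGATIVE mean were chosen after seeing the data. The log2 difference of Apoe turned to 0.097 and that of Rab5a to 0.070 with the MM9NEGATIVE mean as reference. That reference subtracts the group difference of these probes, -0.25, from that of every linear RNA. Why the MM9NEGATIVE mean was lower in CIH was not tested. All other settings kept the sign of all 3 members. Leaving out 1 array gave -0.19 to -0.12 for Apoe, -0.24 to -0.14 for Rab5a and -1.03 to -0.56 for Cav2, which was called only without CIH 2. The 2 linear RNA probes called fell to 0 in the slide block, on slide 1 alone, jointly with circRNA probes, with the MM9NEGATIVE reference and under quantile normalization, whether or not preceded by normexp. There was 1 with no scaling, and 0 to 5 on leaving out 1 array (0 without control 2, 1 without CIH 3, 5 without CIH 2). With the replicate block 4 passed, none of them a member. The correlation of deviations between arrays of one number was 0.44, 0.29 and -0.07. Arrays of unlike number were not compared, so these values do not settle whether the numbers are pairs. The reported fit did not treat them as pairs. The value table of the authors was not run, as it holds none of these probes, and the filter on dim probes left Cav2 without a value.

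The level over the MM9NEGATIVE probes was 4.07 for Apoe with normexp under either scaling, 4.40 without background subtraction, 5.23 against the median of these probes and 2.49 against the brightest. For Rab5a it was 0.49 with normexp under either scaling, 0.63 without subtraction and -1.60 against the brightest, and for Cav2 -0.56 with normexp and the 75th percentile, -0.67 without subtraction and -3.64 against the brightest. Background left in, or the offset added with normexp, by itself shrinks such log2 levels. Leaving out 1 array gave 5.09 to 5.13 for Apoe, 1.0 to 1.07 for Rab5a and -1.18 to -0.90 for Cav2. Dim signal limits Cav2, whose background-subtracted intensity was of the order of its gap to the spot median.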
